A study of Homo sapiens with 12 samples.

Results

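The 10 genes described here encode enzymes of the glycerol-3-phosphate route of triglyceride synthesis. GPAM and GPAT3 are glycerol-3-phosphate acyltransferases, AGPAT1 to AGPAT5 are lysophosphatidate acyltransferases, LPIN1 is a phosphatidate phosphatase, and DGAT1 and DGAT2 are diacylglycerol acyltransferases. They were taken by name from the pathway, at a time when earlier results of these data were known, and make up 10 of the 23705 genes in the count table. All 10 passed the filter on low counts and were among the 13522 genes tested. LPIN1 removes a phosphate and transfers no acyl group, and was kept as the step that links the acyltransferases.

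RNA of A375 cells, a human metastatic melanoma line, was sequenced in 3 independent experiments with 1 library per condition, which gave 12 libraries. All cells were grown in DMEM with 10% FBS and received the DMSO vehicle, either alone or with 5 µM of RGZ (rosiglitazone, an agonist of the nuclear receptor PPARγ), with 2 µM of T0070907 (an antagonist of the same receptor) or with both compounds, for 24 h in each case. Each library holds the pooled RNA of the technical replicates of its experiment, so the libraries of a condition stand for the 3 experiments. A375 is a single cell line, and the results hold for this line only.

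Triglycerides are made in the endoplasmic reticulum by adding fatty acids one after the other to a glycerol backbone. A GPAT enzyme makes lysophosphatidate, an AGPAT enzyme turns it into phosphatidate, a lipin removes the phosphate, and a DGAT enzyme adds the last fatty acid to diacylglycerol, after which the triglyceride is stored in lipid droplets. Phosphatidate and diacylglycerol are also precursors of membrane phospholipids, so the early enzymes serve growing cells as well as fat storage. In adipocytes, PPARγ is the central regulator of fat storage, and inherited loss of AGPAT2 leads to a near absence of adipose tissue.

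Among these enzymes the RNAs of AGPAT2 and GPAT3 were higher after RGZ, by 1.54-fold and 1.38-fold, and those of the 8 other enzymes differed from vehicle by less than the test could call. AGPAT2 was called with and without the experiment as a block in the model, and GPAT3 only with it. With T0070907 added to RGZ, the levels of both genes overlapped those of vehicle, AGPAT2 only through experiment 2. With all libraries, neither differed from vehicle by a called amount. The mean AGPAT2 level lay between those of vehicle and RGZ, and the mean GPAT3 level was 129.8 CPM, against 129.7 CPM with vehicle. Both genes were lower than with RGZ alone by a difference called only with the block.

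The promoters of both genes are shown because their RNAs moved together with RGZ, and that of AGPAT1, the neighbour of AGPAT2 in function, is shown because it holds the only receptor motif found. Each is a window of 300 bases with the start of the gene near its 3′ end, written 5′ to 3′ on the gene's strand, from RefSeq on the build GRCh38.p14. Capitals mark AGGTCA, the motif that nuclear receptors of the PPAR and RXR type bind, and CANNTG, the E-box motif. AGPAT2 lies at chr9:136687408-136687707 on the minus strand, GPAT3 at chr4:83535858-83536157 on the plus strand and AGPAT1 at chr6:32173067-32173366 on the minus strand.
AGPAT2: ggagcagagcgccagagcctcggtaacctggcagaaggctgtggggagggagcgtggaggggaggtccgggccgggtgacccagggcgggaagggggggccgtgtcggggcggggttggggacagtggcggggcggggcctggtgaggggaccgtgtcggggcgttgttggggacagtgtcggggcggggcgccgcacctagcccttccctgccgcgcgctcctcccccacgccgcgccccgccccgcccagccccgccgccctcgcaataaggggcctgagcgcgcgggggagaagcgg
GPAT3: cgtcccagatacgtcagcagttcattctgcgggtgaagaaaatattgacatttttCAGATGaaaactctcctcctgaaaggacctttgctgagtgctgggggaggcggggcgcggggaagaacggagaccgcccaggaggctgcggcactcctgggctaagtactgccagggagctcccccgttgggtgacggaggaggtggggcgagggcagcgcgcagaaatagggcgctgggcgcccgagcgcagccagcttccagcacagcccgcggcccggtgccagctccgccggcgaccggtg
AGPAT1: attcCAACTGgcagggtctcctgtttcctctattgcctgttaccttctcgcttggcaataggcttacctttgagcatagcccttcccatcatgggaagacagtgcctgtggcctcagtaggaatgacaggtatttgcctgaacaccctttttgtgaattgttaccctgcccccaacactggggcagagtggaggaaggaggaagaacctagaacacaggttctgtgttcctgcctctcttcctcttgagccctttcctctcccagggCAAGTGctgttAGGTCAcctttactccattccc

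Promoters of 7 of the 10 genes were found in the RefSeq table, and those of AGPAT5, DGAT1 and DGAT2 were not. A direct repeat of AGGTCA with 1 base between the copies, the DR1 element of PPARγ, was searched on both strands with up to 2 mismatches and matched none of the 7, against 2.97% of 35116 promoters in the table. The single motif AGGTCA matched exactly in AGPAT1 alone, 29 bases after the start, and in 13.8% of all promoters. CANNTG, which reads the same on both strands and does not overlap the other motifs, matched in 6 of the 7, with AGPAT2 as the exception, and in 68.7% of all promoters. The AGPAT2 promoter was the richest of the 7 in G and C, at 77.3% with 33 CpG, against 65% and 25 CpG for GPAT3, 51.7% and 1 CpG for AGPAT1, and a median of 58.7% and 14 CpG over all promoters. These matches describe short windows of sequence and carry no measure of binding.

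Library totals ranged from 8319455 to 11375227 counts. The response to the compounds was checked on 5 known PPAR targets (FABP4, ANGPTL4, PLIN2, PDK4 and CPT1A), and all 5 were called higher with RGZ and lower in the combination than with RGZ alone. Of 6 melanocyte lineage markers, MITF, SOX10 and PMEL were tested. With vehicle, SOX10 averaged 310.9 CPM, MITF 45.9 CPM and PMEL 1.13 CPM. TYR and DCT had at most 1 count and MLANA at most 6 counts in any library, so that these pigment genes were near 0 in these melanoma cells.

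In vehicle-treated cells the enzymes differed widely in level per length. GPAT3 stood at 49.3 ± 7.70 TMM-scaled CPM per kb of its longest transcript (SD, n = 3), AGPAT1 at 48.3 ± 6.96 and AGPAT2 at 42.8 ± 3.70, and the ranges of these 3 overlapped. AGPAT5 followed at 18.4 ± 2.41 CPM per kb and AGPAT3 at 11.4 ± 0.59. DGAT1, at 9.29 ± 0.62 CPM per kb, and LPIN1, at 8.76 ± 0.69, overlapped each other. GPAM lay lower at 4.06 ± 0.60 CPM per kb, then DGAT2 at 1.13 ± 0.10, and AGPAT4 was lowest at 0.55 ± 0.09. GPAT3 thus held the 88.6th percentile among 13305 genes with a known length, and AGPAT4 the 7.67th. With the median annotated transcript length in place of the longest, GPAT3 stayed first, and GPAM, DGAT2 and AGPAT4 stayed last in the same order, but the genes between them changed places, with AGPAT5 and then LPIN1 next after GPAT3.

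**Figure D1:**
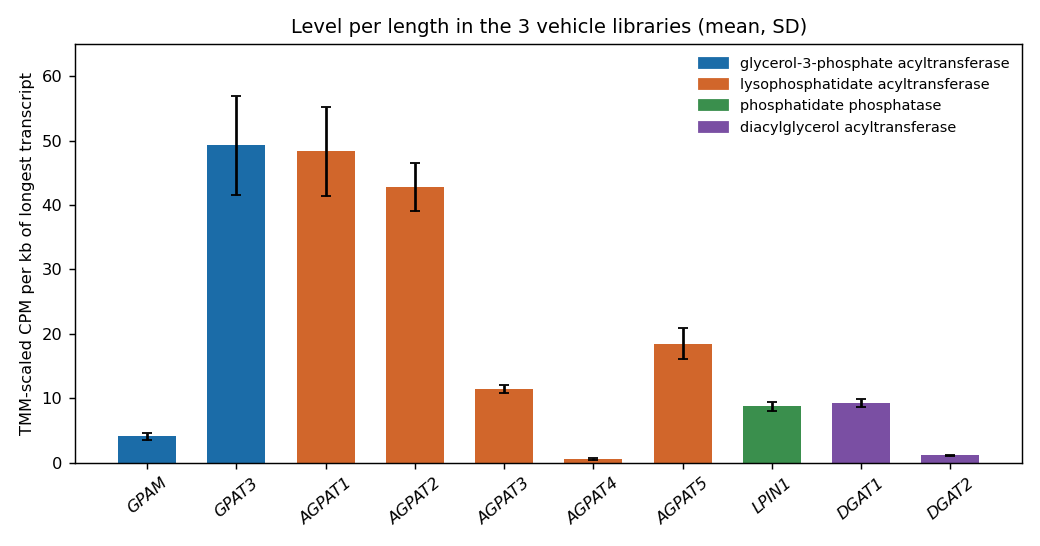
Level of the 10 enzymes per length in vehicle-treated A375 cells, coloured by the step they catalyse. Bars are means of 3 libraries in TMM-scaled CPM per kb of the longest transcript and error bars are SD. GPAT3, AGPAT1 and AGPAT2 stand above 40 CPM per kb, and DGAT2 and AGPAT4 are close to 1 CPM per kb or below.

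GPAT3 makes lysophosphatidate at the endoplasmic reticulum and is known for its rise during fat cell formation. Its level in experiments 1, 2 and 3 was 135, 107 and 147 CPM with vehicle and 175, 159.8 and 203 CPM with RGZ. It was 111.5, 92.6 and 124 CPM with T0070907 alone and 122, 114 and 154 CPM with both compounds. Every RGZ library was above every vehicle library, and the combination overlapped vehicle and stayed below RGZ alone throughout. Experiment 2 was the lowest and experiment 3 the highest in all 4 conditions.

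The log2 fold change of GPAT3 with RGZ was 0.47 (SE 0.15, adjusted p = 0.232, quasi-likelihood test of edgeR, Benjamini-Hochberg over all genes tested), so it was not called in the model without the experiment. With the experiment as a block the change was the same at 0.47, with an SE of 0.06 and an adjusted p of 2.91e-05. Condition accounted for 68.7% of the spread of log2 CPM of GPAT3 over the 12 libraries, experiment for 29.3% and the remainder for 1.98%. Within experiments the log2 ratio of RGZ to vehicle was 0.38, 0.57 and 0.47, and with the block the gene was called whichever of the 6 libraries was left out.

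Adding T0070907 to RGZ lowered GPAT3 by a log2 fold change of -0.47 (SE 0.15, adjusted p = 0.207 without the block and 3.24e-05 with it, edgeR), in 3 of 3 experiments, and with the block the call held without any one of the 6 libraries. The combination differed from vehicle by 0.00 on the log2 scale (95% interval -0.33 to 0.33 without the block and -0.12 to 0.13 with it). Without the block this difference ran from -0.14 without combination library 3 to 0.10 without vehicle library 3, and with it from -0.03 to 0.05, so its direction was not settled. Set against T0070907 alone, the combination was higher by 0.25 (adjusted p = 0.471 without the block and 0.0214 with it, edgeR). This last call was lost with the block when T0070907 library 1, 2 or 3 or combination library 3 was left out, with adjusted p-values of 0.0766, 0.133, 0.057 and 0.13. For GPAT3, T0070907 by itself gave -0.25 on the log2 scale, lower in 3 of 3 experiments (adjusted p = 1 without the block and 0.0671 with it, edgeR).

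GPAM, the acyltransferase of the mitochondrial outer membrane, showed no such change. Its level was 28.0, 21.4 and 28.1 CPM with vehicle in experiments 1 to 3 and 24.8, 23.9 and 22.9 CPM with RGZ, and the groups overlapped. The log2 fold change with RGZ was -0.12 (95% interval -0.35 to 0.12, adjusted p = 0.762, edgeR). GPAM ranged from 22.6 to 24.2 CPM in the combination, below the 24.8 to 27.5 CPM of T0070907 alone, and this difference of -0.17 was not called (adjusted p = 0.492, edgeR).

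AGPAT2 makes phosphatidate in the endoplasmic reticulum. Its level was 60.9, 71.2 and 62.2 CPM with vehicle in experiments 1 to 3, and 96.0, 113.5 and 89.1 CPM with RGZ. It was 54.5, 51.7 and 62.7 CPM with T0070907 alone and 85.6, 67.6 and 79.1 CPM with both. All 3 RGZ libraries stood above the other 9, and the combination overlapped vehicle only through experiment 2.

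With RGZ, AGPAT2 rose by a log2 fold change of 0.62 (SE 0.12, adjusted p = 0.0258, edgeR), and by 0.62 (SE 0.10, adjusted p = 5.86e-04) with the block. The log2 ratios within experiments were 0.66, 0.67 and 0.52. In the model without the block the call was lost without vehicle library 1, vehicle library 3, RGZ library 1 or RGZ library 2, with adjusted p-values of 0.116, 0.125, 0.0694 and 0.0997, and with the block it held in all 6 cases. Condition accounted for 85.2% of the spread of log2 CPM of AGPAT2, experiment for 0.0273% and the remainder for 14.8%, so the experiments shifted AGPAT2 far less than GPAT3.

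In the combination AGPAT2 was lower than with RGZ alone, at a log2 fold change of -0.36 (SE 0.12, adjusted p = 0.202 without the block and 0.0278 with it, edgeR), in 3 of 3 experiments. Experiment 2 gave -0.75 and the others -0.16 and -0.17. This call with the block was lost when RGZ library 1 or 2 or combination library 2 or 3 was left out, with adjusted p-values of 0.0719, 0.187, 0.0902 and 0.0668. The combination stayed above T0070907 alone by 0.46, or 0.45 with the block, in 3 of 3 experiments (adjusted p = 0.261 without the block and 0.0174 with it, edgeR), a call lost with the block without T0070907 library 1 or 2 or combination library 3, at 0.113, 0.141 and 0.0982. Relative to vehicle, the combination left 41.5% of the fitted RGZ change in AGPAT2, a difference of 0.26. This difference was not called (adjusted p = 0.468 without the block and 0.178 with it, edgeR). Within experiments 1 to 3 it was 0.49, -0.07 and 0.35. With the block it was 0.39 and called without combination library 2 (adjusted p = 9.28e-03), and 0.15 and not called without combination library 1 (adjusted p = 0.631). Whether AGPAT2 and GPAT3 differed in how far the combination lay from vehicle was not tested.

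**Figure D2:**
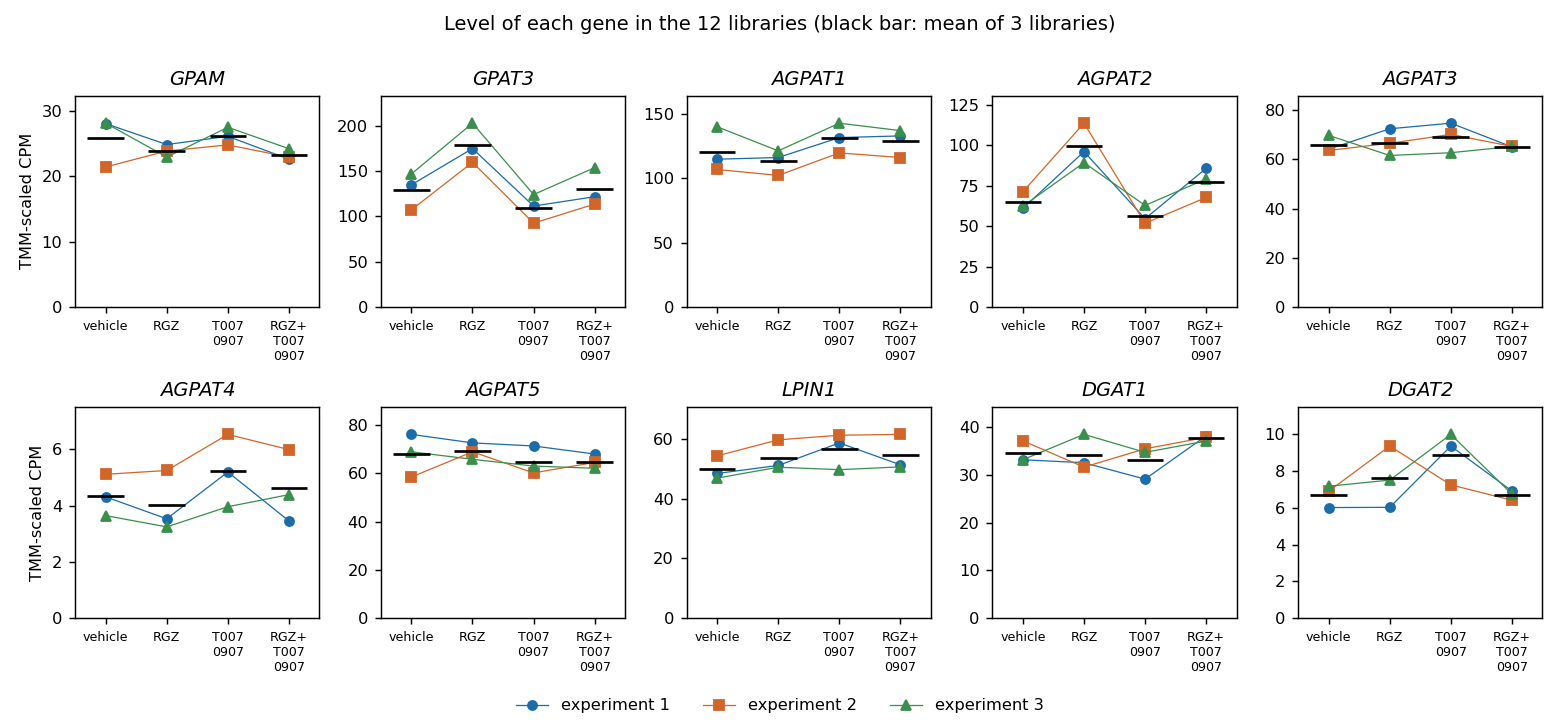
Level of each enzyme gene in the 12 libraries in TMM-scaled CPM, by condition, with 1 panel per gene and its own axis from 0. Points joined by a line are the 4 libraries of an experiment and black bars are means of 3 libraries. The 3 RGZ libraries of AGPAT2 and of GPAT3 lie above all vehicle libraries, and the GPAT3 lines run nearly parallel.

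**Figure D3:**
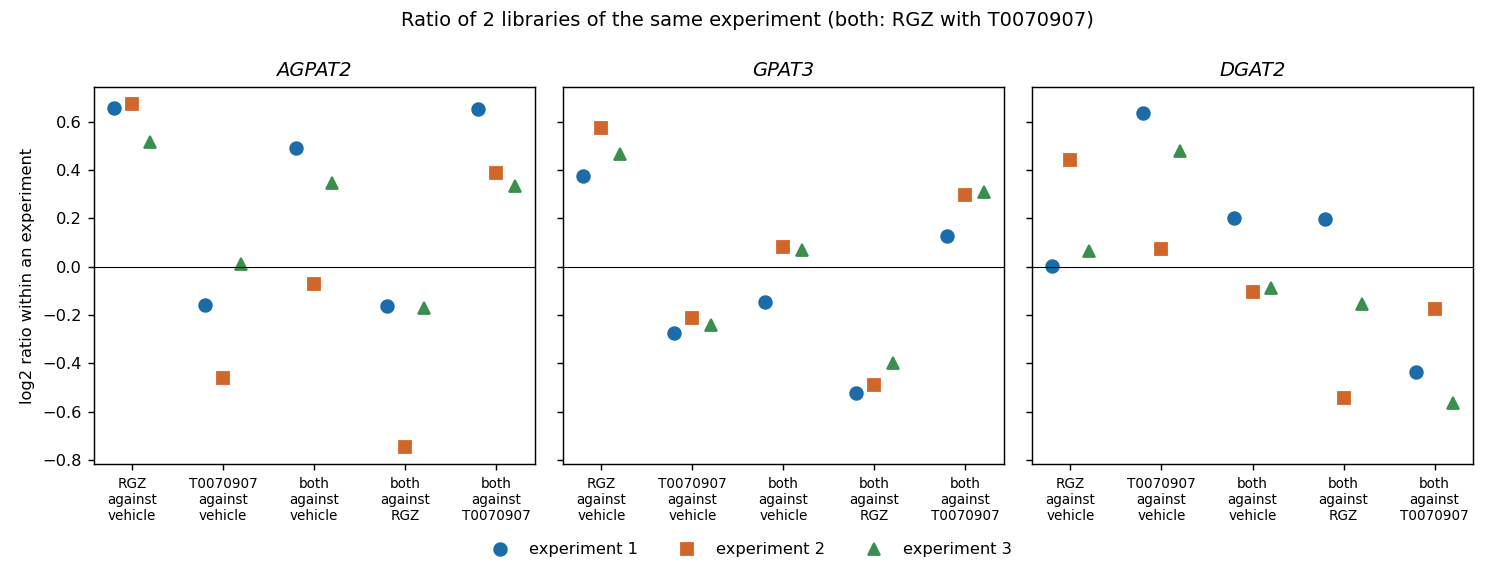
Log2 ratio of 2 libraries of the same experiment for AGPAT2, GPAT3 and DGAT2 in 5 comparisons, with 1 point per experiment. AGPAT2 and GPAT3 are above 0 in all 3 experiments for RGZ against vehicle, and the combination against RGZ is near -0.75 for AGPAT2 in experiment 2 and near -0.17 in the others.

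The remaining lysophosphatidate acyltransferases did not change with RGZ beyond the spread. AGPAT1, an enzyme of the endoplasmic reticulum found in most tissues, was at 115, 107 and 140.1 CPM with vehicle and at 116, 102 and 121 CPM with RGZ. AGPAT1 was 133, 116 and 137 CPM in the combination, higher than with RGZ alone in 3 of 3 experiments by 0.18 on the log2 scale, which did not pass the test (adjusted p = 0.515 without the block and 0.0521 with it, edgeR). Experiment accounted for 60.3% of the spread of AGPAT1. In GENCODE 29, exons of PPT2-EGFL8 on the opposite strand cover 29.9% of the AGPAT1 exons, and without a known strand setting of the counting their reads cannot be told apart.

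AGPAT3 stood at 63.7 to 69.8 CPM with vehicle and 61.6 to 72.5 CPM with RGZ, and its log2 fold change was 0.02 (95% interval -0.16 to 0.20). AGPAT5, a mitochondrial member, was at 58.5 to 76.2 CPM with vehicle and 65.9 to 72.7 CPM with RGZ, a log2 fold change of 0.03 (95% interval -0.19 to 0.24). AGPAT4 was counted only 28 to 73 times per library, and its change of -0.12 had a 95% interval from -0.73 to 0.48 without the block and from -0.52 to 0.26 with it.

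LPIN1, which turns phosphatidate into diacylglycerol and also acts in the nucleus as a coactivator, was at 48.4, 54.3 and 46.8 CPM with vehicle, 51.0, 59.6 and 50.4 CPM with RGZ, 58.6, 61.1 and 49.6 CPM with T0070907 and 51.3, 61.4 and 50.6 CPM with both. In all 3 experiments LPIN1 was higher with RGZ than with vehicle, by 0.08, 0.14 and 0.11 on the log2 scale, but the groups overlapped. The log2 fold change of 0.11 did not pass the test (adjusted p = 0.786 without the block and 0.396 with it, edgeR). Experiment accounted for 66.6% of the spread of LPIN1 and condition for 23.7%, with experiment 2 highest in each condition.

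DGAT1 and DGAT2 catalyse the same last step and are unrelated in sequence. DGAT1 was at 33.2, 37.1 and 33.2 CPM with vehicle and at 32.5, 31.6 and 38.5 CPM with RGZ, a change of -0.01 (95% interval -0.23 to 0.21). In the combination DGAT1 was 38.2, 37.9 and 37.1 CPM, above the 29.1, 35.4 and 34.7 CPM of T0070907 alone, a difference of 0.18 with the block that did not pass the test (adjusted p = 0.185, edgeR). Exons of DGAT1 are shared in GENCODE 29 with AC233992.1 on the same strand (10.7%) and with HSF1 on the other (3.36%).

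DGAT2 was at 6.0, 6.9 and 7.2 CPM with vehicle, 6.0, 9.4 and 7.5 CPM with RGZ, 9.4, 7.3 and 10.0 CPM with T0070907 and 6.9, 6.4 and 6.8 CPM with both. These values rest on 53 to 116 counts per library. The T0070907 libraries lay above those of vehicle and of the combination. The log2 fold change of DGAT2 with T0070907 was 0.40 (SE 0.18, adjusted p = 1 without the block and 0.424 with it, edgeR), and the combination against T0070907 alone gave -0.40 (adjusted p = 0.321 without the block and 0.125 with it). DGAT2 therefore showed no called change in any comparison. Antisense genes cover 5.35% and 1.48% of its exons in GENCODE 29.

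Over the 10 enzymes, 1 was called higher and none lower with RGZ without the block, against 1.24% of all genes tested, and 2 with the block, against 9.3%. DESeq2 and limma-voom each called AGPAT2 as well, against 2.23% and 1.13%. The median log2 fold change of the 10 was 0.02, against -0.01 for all genes tested. The 8 enzymes other than AGPAT2 and GPAT3 ranged from -0.12 to 0.19, with a lowest adjusted p of 0.762, and from -0.13 to 0.18 with the block, with a lowest adjusted p of 0.396 (edgeR).

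In the combination against RGZ alone, edgeR called 0 of the 10 without the block, against 1.24% of all genes. At an unadjusted p under 0.05 it had 2 of the 10, against 1773 of the 13522 genes tested. DESeq2 and limma-voom also called 0, against 2.5% and 1.23%. With the block, 2 were called lower, AGPAT2 and GPAT3, against 11.4%. In the combination against T0070907 alone, edgeR and limma-voom called 0 without the block, each against 0.037% of all genes. At an unadjusted p under 0.05 edgeR had 2 of the 10, against 2028 of the 13522. DESeq2 called 1 (AGPAT2, adjusted p = 0.0364), against 1.62% of the 5133 genes to which it gave an adjusted p, which leave out AGPAT4, GPAM, DGAT1 and DGAT2. With the block, 2 were called higher, again AGPAT2 and GPAT3, against 8.76%.

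T0070907 against vehicle gave 0 calls among the 10 by edgeR, by DESeq2 and by limma-voom, against 0.0074%, 0.168% and 0% of all genes in that order. In edgeR 1 of the 10 had an unadjusted p under 0.05, as had 419 of the 13522 genes tested. The block also gave 0, against 0.91%, with 4 of the 10 and 1328 of the 13522 at an unadjusted p under 0.05. The combination against vehicle gave 0 calls by the same 3 tools and 0 with the block, and each called 0% of all genes. At an unadjusted p under 0.05 edgeR had 1 of the 10 without the block, against 1438 of the 13522, and 1 with it, against 2868. The interaction, which asks whether the RGZ effect differed in the presence of T0070907, gave 0 calls among the 10 by the 3 tools. In edgeR 1 of the 10 had an unadjusted p under 0.05, against 406 of the 13522. Over all genes edgeR and limma-voom called 0 and DESeq2 called 1, or 0.0074%. There were also 0 calls among the 10 with the block, against 0.281% of all genes. With it, 2 of the 10 had an unadjusted p under 0.05, against 1324 of the 13522. All comparisons with vehicle share the same 3 vehicle libraries, and those with RGZ the same 3 RGZ libraries.

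**Figure D4:**
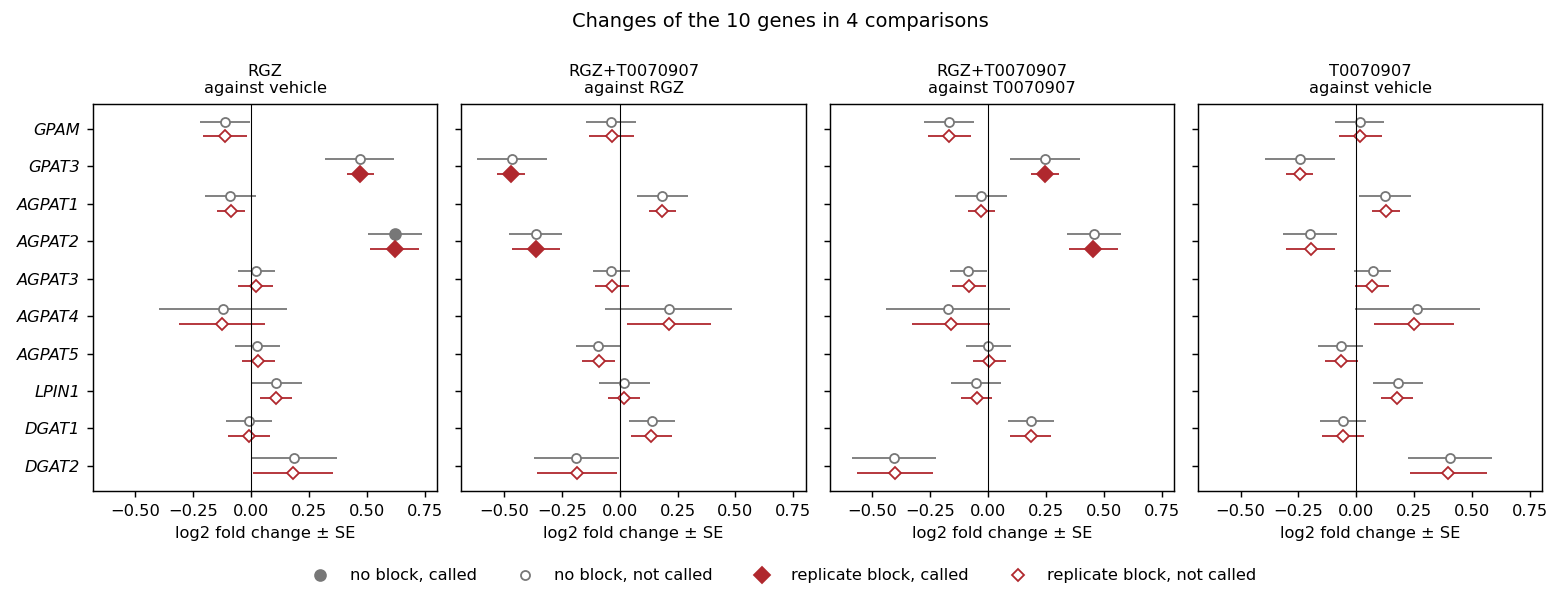
Log2 fold change of the 10 enzyme genes in 4 comparisons, with approximate SE as horizontal bars, in the model without the block (grey circles) and with it (red diamonds). Filled symbols are called at an adjusted p under 0.05 over all genes tested. AGPAT2 and GPAT3 are the only genes with filled symbols, and the SE of GPAT3 is 0.15 without the block and 0.06 with it.

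The make-up of 2 steps of the pathway followed these changes. Per length, AGPAT2 made up 35.3% ± 4.21 of the summed AGPAT1 to AGPAT5 level with vehicle (SD, n = 3), 46.2% ± 4.24 with RGZ, 31.0% ± 1.52 with T0070907 and 38.6% ± 1.71 with both. By mean share AGPAT1 was first with vehicle at 39.6% ± 3.68, overlapping AGPAT2, and AGPAT2 was first with RGZ, but with the median transcript length AGPAT5 was first in both, at 118.5 and 121 CPM per kb. GPAT3 made up 74.3% ± 2.24 of the summed level of GPAM, GPAT3 and GPAT4 with vehicle and 80.0% ± 1.84 with RGZ. DGAT1 made up 85.5% to 90.0% of both DGAT genes in the 4 conditions, as group means. These shares have no test of their own and depend on the transcript lengths used.

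Other genes around the pathway were counted from lists. Of 12 other triglyceride synthesis genes (GPAT2, GPAT4, LCLAT1, LPIN2, LPIN3, MOGAT1 to MOGAT3, DGAT2L6, AWAT1, AWAT2 and TMEM68), 5 were tested and 0 called with RGZ in either model. The 7 not tested, among them all 3 monoacylglycerol acyltransferases, had at most 3 counts in any library. GPAT4, the other GPAT of the endoplasmic reticulum, was at 80.5 ± 1.16 CPM with vehicle and 82.5 ± 1.48 CPM with RGZ (SD, n = 3).

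Of 5 phosphatidate phosphatases outside the lipins and lipin activators, all tested, 1 was called lower with RGZ and 0 higher in both models, against 1.24% of all genes without the block and 9.3% with it. It was PLPP3, a phosphatase that degrades lysophosphatidate and phosphatidate at the cell surface, at 13.1, 15.1 and 16.0 CPM with vehicle and 9.77, 9.93 and 9.03 CPM with RGZ, with no overlap. PLPP3 fell by 0.62 on the log2 scale (SE 0.13, adjusted p = 0.0425 without the block and 1.95e-03 with it, edgeR), and in the combination it was 0.49 above RGZ alone (adjusted p = 0.115 without the block and 0.0126 with it). Set against T0070907 alone, the combination was lower in PLPP3 by -0.37, or -0.38 with the block (adjusted p = 0.261 without the block and 0.0378 with it, edgeR), where 0.037% and 8.76% of all genes were called.

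Of 21 genes for other uses of phosphatidate and diacylglycerol, 18 were tested and 0 called with RGZ without the block. With it, 1 of the 18 was called lower, where 9.3% of all genes were called. This was PCYT1B, an enzyme of phosphatidylcholine synthesis, at -0.53 (SE 0.16, adjusted p = 0.224 without the block and 0.0430 with it, edgeR). Both sterol acyltransferases and 3 of 4 droplet-forming proteins of the endoplasmic reticulum were tested, and 0 were called in either model.

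In the combination against RGZ alone, 0 of these genes were called without the block. With the block, LPIN2, another lipin, was 1 of the 5 other synthesis genes tested and was called lower (-0.40, SE 0.08, adjusted p = 2.68e-03, edgeR), with 0 called higher. PLPP3 was 1 of the 5 phosphatases and activators and was called higher. Of the 18 genes for other uses, 2 were called higher, PCYT1B (0.62, adjusted p = 0.0152) and PCYT2 (0.48, 7.26e-03), and 1 lower, SELENOI (-0.29, 0.0211). In that model 11.4% of all genes tested were called. LPIN2, PCYT2 and SELENOI were named after their values were seen.

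The genes whose pattern over the 12 libraries was most like that of GPAT3, by Pearson's r of log2 CPM, were KALRN (0.98), AQP7P1 (0.975) and AP3B2 (0.975). AQP7P1 had a low level, at a mean of 1.18 CPM over the 12 libraries. For AGPAT2 they were PHLDA3 (0.957), MED8 (0.956) and PELO (0.953), and for LPIN1 they were ADGRB2 (0.927), PGAP6 (0.909) and POLM (0.902). The 12 libraries come from 3 experiments, so these values are a description over points that are not independent.

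All libraries come from A375, a single cell line, and markers of other cell types were measured beside the enzymes as a check of that label. In bulk RNA, fewer cells of a type and less RNA per cell cannot be told apart. Of 5 adipocyte markers none passed the filter, ADIPOQ and CIDEA were at 0 counts in all libraries, LEP and PLIN1 had at most 3, CIDEC had at most 31, and the summed level of the 5 was 0.24 to 1.07 CPM with vehicle and 0.42 to 3.88 CPM with RGZ. CIDEC was 0.12 to 0.83 CPM with vehicle and 0.31 to 3.54 CPM with RGZ. FABP4, counted here among the PPAR targets and also an adipocyte gene, was 0.11 to 0.12 CPM with vehicle and 167 to 401 CPM with RGZ. Melanocyte markers summed to 265 to 459.5 CPM with vehicle, 222.5 to 400.0 CPM with RGZ, 307 to 465.5 CPM with T0070907 and 272 to 432.5 CPM with both. Most of these sums was SOX10.

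With the block, 1 of the 3 melanocyte markers tested was called lower with RGZ (MITF, -0.34, adjusted p = 9.97e-03, edgeR), as were 1 of 4 fibroblast markers (COL1A1, -0.76, 6.72e-04) and 1 of 3 keratinocyte markers (KRT14, -0.94, 1.82e-04), and none was called without it. In the same model 9.3% of all genes tested were called. With the block, MITF (0.27, adjusted p = 0.0377) and KRT14 (1.10, 3.20e-05) were called higher in the combination than with RGZ alone, where 11.4% of all genes were called (edgeR). In the combination against T0070907 alone, with 8.76% of all genes called, COL1A1 was called lower (-0.55, 0.0125) and LYZ, a leukocyte marker, higher (0.54, 0.0390). Summed fibroblast markers were 15.1 to 35.7 CPM with vehicle and 11.0 to 21.8 CPM with RGZ, and keratinocyte markers 87.9 to 114 CPM with vehicle and 85.9 to 99.1 CPM with RGZ. Of the leukocyte markers, LYZ was tested and was not called with RGZ, and PTPRC and CD3E had at most 2 counts. The part of these markers in the changes of AGPAT2 and GPAT3 was not tested.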

How the data were processed

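The authors deposited raw counts per gene, with NCBI gene numbers as row names, for all 12 libraries, and no normalization had been applied. TruSeq RNA libraries were sequenced on a HiSeq 2000, and the submitters' processing notes name the build hg19. The aligner, the counter, the annotation and the strand setting are not given in the sources used here. Symbols were matched for 23538 of 23705 genes. Totals of 8319455 to 11375227 counts gave AGPAT4 28 to 73 counts and DGAT2 53 to 116 counts per library.

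Conditions and experiment numbers came from the sample titles. Counts were scaled by TMM and filtered by filterByExpr in R 4.3.3 with edgeR 4.0.16, and a quasi-likelihood model with 4 groups was fitted to all 12 libraries. Genes with a Benjamini-Hochberg adjusted p under 0.05 over the 13522 tested were called. The SE is the size of the log2 fold change divided by the square root of F and is approximate. Levels per length divide CPM by the longest transcript in GENCODE 29.

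The replicate block adds the experiment number. The pairing of libraries comes from the series' description, which states 3 independent experiments, and from the numbers 1 to 3 in the sample titles. These were taken as the experiment numbers, although the titles do not say so in words and all share the same experiment label. Deviations from the group means correlated at a mean r of 0.554 within experiments (0.0793 to 0.758, 18 pairs) and -0.27 between them (36 pairs). With 3 against 3, an exact permutation test of a single gene cannot go below 0.1, so none is given. The series' description calls the experiments independent without naming separate cultures. Without the block, p-values measure only the spread between the libraries of a condition. With it, they measure only the spread left after shifts between experiments are taken out.

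Alternatives were DESeq2 1.42.0 as tool and as size factors in edgeR, limma-voom (limma 3.58.1), no filter, at least 10 counts in every library, only the groups compared, an adjusted p under 0.01 and each library left out. The edgeR steps were tested on simulated data. All 10 enzymes are named whatever their values, and of the other lists the genes called for RGZ against vehicle in either model. The 3 most similar genes are given for the 3 enzymes with the lowest p with the block. The enzymes and lists were chosen with earlier results of these data known. Promoter sequences are from RefSeq on GRCh38.p14 and no coordinate was converted. A planned comparison of protein sequences was not done.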

Additional observations from a re-analysis of the deposited data

Results flagged for a closer look

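DGAT2 was higher with RGZ than with vehicle in all 3 experiments and lower in the combination than with T0070907 alone in all 3. AGPAT3, LPIN1 and DGAT1 also had fitted changes of opposite sign in these comparisons. AGPAT3 had opposite signs within each experiment, but it was higher with RGZ in 2 experiments and lower in 1. LPIN1 and DGAT1 did not have opposite signs in every experiment. For DGAT2, RGZ against vehicle gave log2 ratios of 0.00, 0.44 and 0.07 in experiments 1 to 3, and the combination against T0070907 alone gave -0.44, -0.18 and -0.57. The first of these rests on 53 counts with vehicle and 58 with RGZ. The difference between the 2 effects was tested and did not pass, at -0.581 (SE 0.24, adjusted p = 0.449, edgeR) with the experiment as a block and at -0.59 (SE 0.26, adjusted p = 1) without it.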

How the results depend on the processing

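With RGZ against vehicle, 1 of the 10 enzymes was called in the model without the block, and 0 when only the groups compared were fitted (AGPAT2 at an adjusted p of 0.0711, edgeR) or at an adjusted p under 0.01. It was 0 to 1 when a library was left out. The paired analysis with the replicate block called 2, and again 2 without each vehicle or RGZ library. For the combination against RGZ the count of 0 became 2 with the replicate block and 1 to 2 when a library was left out as well. For the combination against T0070907 it became 1 with DESeq2, 2 with the replicate block, and 0 to 2 when a library was left out as well. For the combination against vehicle it became 1 with the replicate block without combination library 2, where the block with all libraries called 0 of all genes. The shares of all genes called in the refits with the block and a library left out are not given here, so these counts have no background beside them. The block changed no other call among the 10 enzymes. The cause of these moves was not tested. The other 105 counts of called enzymes were as in the model reported.

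Changes with RGZ that were not called turned direction for 6 enzymes when a library was left out. Without the block the log2 fold change ran from -0.171 to 0.0320 for AGPAT1, from -0.0397 to 0.0786 for AGPAT3, from -0.360 to 0.00790 for AGPAT4, from -0.0703 to 0.118 for AGPAT5 and from -0.103 to 0.0452 for DGAT1. With the replicate block it turned to -0.0390, -0.00834 and -0.0278 for AGPAT3 without vehicle library 1, vehicle library 2 and RGZ library 1, to -0.0503 and -0.0190 for AGPAT5 without vehicle library 2 and RGZ library 2, to 5.853e-04, 0.0430 and 0.0770 for DGAT1 without vehicle library 1, vehicle library 2 and RGZ library 2, and to -0.0398 for DGAT2 without RGZ library 2.

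Counts over all genes moved more. With RGZ, 167 genes were called, 302 by DESeq2, 1258 with the block, 69 with only the groups compared, 48 at an adjusted p under 0.01 and 45 to 88 without a library. The combination against RGZ gave 167, 318 by DESeq2 and 1545 with the block, the combination against T0070907 gave 5, 83 and 1185, T0070907 against vehicle gave 1, 21 and 123, and the interaction gave 0, 1 and 38.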
